A study of Rattus norvegicus with 12 samples.

Results

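The Srd5a2 locus was examined as consecutive windows of 100 bp over 40400 bp of chromosome 6 in the rat genome build Rnor 6.0, from 20.1 kb before the start of the window chr6:25293601-25293700 up to position 25313900. Of these windows, 386 held a count in at least 1 sample and 18 held none, out of 27820300 windows over the whole genome. Srd5a2 encodes a steroid 5-alpha reductase. The locus was chosen by a differential DNA methylation region (DMR) of prostate epithelial cells that the study had assigned to this gene, and it extends 20 kb to each side of that region. It was therefore selected on the epithelial counts of the control and vinclozolin lineages, so that this contrast is given as a description and no test of it is used.

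DNA methylation was measured by MeDIP-Seq, in which an antibody to methylated cytosine enriches DNA fragments so that a more methylated region yields more sequenced reads. The rats were of the outbred Hsd:Sprague Dawley stock, from the F3 generation and 19 to 21 days old. Their F0 generation ancestors, gestating females, had been injected with either vinclozolin at 100 mg/kg/day or the vehicle DMSO on gestation days 8 to 14. No rat was treated in the generations after F0. From the ventral prostate, epithelial cells gave 3 pools of each lineage and stromal cells another 3 of each, 12 in all. Each pool combined the cells of several rats, and the epithelial and stromal cells were prepared from the same groups of rats, so the stromal pools are not independent of the epithelial pools. The labels give the cell types, and counts of methylated DNA do not allow a check of them by expressed markers.

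Steroid 5-alpha reductases convert testosterone into dihydrotestosterone, which binds the androgen receptor more tightly, and the enzyme encoded by Srd5a2 is known for its role in the growth and differentiation of the prostate. In this gland androgens act on the stroma as well as on the epithelium, and the stromal cells send signals to the epithelium. Vinclozolin is a fungicide whose metabolites block the androgen receptor. Methylated cytosine in mammalian DNA lies mostly in CG dinucleotides, and methylation near a gene start is commonly associated with low transcription. RNA levels of Srd5a2 were not analysed here.

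The promoter of the gene is shown because its CG dinucleotides, in capitals, are the positions where methylation could be held at the gene start. The sequence spans 300 bases around the start of the gene, most of them before it, from RefSeq in the later build GRCr8, chr6:27177839-27178138 on the plus strand.
Srd5a2 promoter: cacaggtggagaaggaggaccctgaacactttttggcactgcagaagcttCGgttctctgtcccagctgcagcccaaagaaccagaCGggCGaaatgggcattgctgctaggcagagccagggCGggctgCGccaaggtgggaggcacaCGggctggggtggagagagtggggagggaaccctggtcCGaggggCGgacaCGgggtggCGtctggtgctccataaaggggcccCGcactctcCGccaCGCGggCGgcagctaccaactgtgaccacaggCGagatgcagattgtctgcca
It holds 16 CG dinucleotides, against a median of 7 over the 33469 promoters of the same table, of which 30.5% held at least as many. The promoter of Srd5a1, which encodes another 5-alpha reductase, held 19, and the 2 promoters listed for Srd5a3, a reductase that also acts on polyprenol, held 27 and 29. In GRCr8, Srd5a2 lies between the coding genes Memo1 and Xdh, the gene of xanthine dehydrogenase, and the long non-coding RNA gene LOC134479328 overlaps it. GRCr8 coordinates differ from those of the counted windows, and neither an Rnor 6.0 annotation nor its sequence was used here. No window is therefore matched to the promoter, to an exon or to an intron, and positions are given as distances from the window chr6:25293601-25293700, called the DMR window.

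The counts of all windows summed to between 57135700 and 112304623 per pool, and the locus held between 1067 and 2221 counts per pool. The control lineage pools had 60600121 to 87262275 counts against 74605038 to 109250697 in the vinclozolin lineage in epithelial cells and 57135700 to 73948807 against 71843106 to 112304623 in stromal cells. Levels are given as CPM, the count divided by the pool's TMM-scaled total and multiplied by 1e+06, and the part of depth in any lineage difference was not tested. Epithelial control replicate 1 stood apart from the other pools of its group, with a spread of 1.28 and 1.34 times counting noise against replicates 2 and 3. All other pairs of pools within a group lay between 0.931 and 1.09. Overlap of the epithelial lineages that changes without this pool is stated beside the window, and the other values with it are given as measured. Over tiles of 40400 bp, the values for pools of a group were 2.99 to 5.45. A read over several windows is counted in each, which raises the value of a tile. The tiles therefore cannot show that pools differ beyond counting noise. Each pool was counted as 1 library because the study describes them as separate groups of rats.

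Methylated DNA was unevenly spread over the locus, with the highest counts in narrow peaks. Between 27.2% and 49.3% of its windows had no count in a given pool. The highest count of any window in any pool was 95. Joining windows with a mean of at least 0.1 CPM over the 12 pools, with at most 1 lower window between them, gave 12 blocks. They covered 52 windows and held 63.9% of the counts of the locus. The longest stretch between 2 blocks was 8900 bp long and lay near the far end. The blocks and their limit of 0.1 CPM were chosen after the values had been seen.

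**Figure D1:**
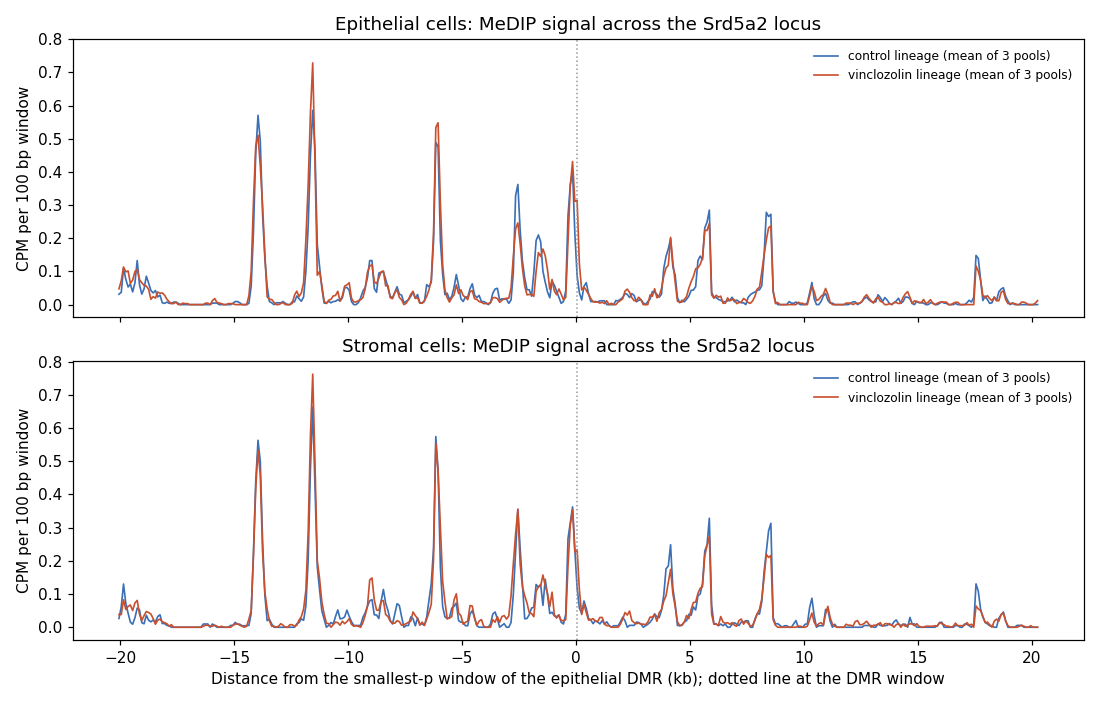
Mean CPM per 100 bp window (vertical axis) over the windows of the locus, by distance in kb from the DMR window (horizontal axis), for epithelial cells (top) and stromal cells (bottom), with 1 line per lineage, each the mean of 3 pools. The peaks lie at the same positions in both cell types and both lineages, and the highest is at -11.6 kb, with 0.585 to 0.763 CPM in the 4 groups.

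The highest window lay 11.6 kb before the DMR window (start 25282001), with 0.585 ± 0.137 CPM in epithelial control pools (SD, n = 3) and 0.728 ± 0.158 in epithelial vinclozolin pools. In stromal cells it had 0.664 ± 0.0844 CPM in control and 0.763 ± 0.106 in vinclozolin pools. Its counts were 45, 44 and 37 in epithelial control, 57, 64 and 67 in epithelial vinclozolin, 34, 44 and 54 in stromal control, and 72, 95 and 55 in stromal vinclozolin pools. The scaled stromal lineages overlapped at this summit. The epithelial lineages overlapped only through epithelial control replicate 1, at 0.743 CPM, since the other control pools had 0.503 and 0.510 CPM and the vinclozolin pools 0.597 to 0.904. Without that pool the ratio was 1.44, against 1.24 with it.

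The next highest windows were spaced along the part of the locus before the DMR window. The window at -14.0 kb (start 25279601) had means of 0.510 to 0.571 CPM in the 4 groups, and the one at -6.2 kb (start 25287401) had 0.489 to 0.575 CPM. The window 200 bp before the DMR window (start 25293401) had 0.355 to 0.431 CPM, and the one at -2.6 kb (start 25291001) had 0.246 to 0.362 CPM. With all pools, -2.6 kb was the only one of these 5 summits where the epithelial lineages did not overlap, with 0.396, 0.332 and 0.358 CPM in control against 0.204, 0.252 and 0.283 in vinclozolin pools. Without epithelial control replicate 1 the lineages did not overlap at -2.6 kb either. Without that pool they also separated at -11.6 kb, with higher vinclozolin values, and at -14.0 kb, with lower ones at a ratio of 0.828. At none of the 5 summits did the stromal lineages separate. After the DMR window, lower blocks followed with summits at 0.206, 0.283, 0.260 and 0.115 CPM.

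The shape of the profile was shared by the 4 groups. Across all windows of the locus, Pearson's r between the group means was 0.976 for epithelial control with stromal control, 0.974 for epithelial vinclozolin with stromal vinclozolin, 0.953 between the epithelial lineages and 0.964 between the stromal lineages. These correlations are across windows, which are not independent replicates, and describe how far the high and low windows coincide.

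In epithelial cells, the window chr6:25293601-25293700 had the smallest p-value of the lineage contrast in the locus. Its counts were 6, 8 and 5 in the control pools and 23, 28 and 30 in the vinclozolin pools. Every vinclozolin pool was above every control pool, also after scaling to depth. The means were 0.0865 ± 0.0157 CPM in control and 0.314 ± 0.0788 CPM in vinclozolin pools (SD, n = 3), a ratio of 3.63, or 1.86 on the log2 scale. Without epithelial control replicate 1 the log2 ratio was 1.97. These values chose the locus and are a description.

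The DMR window lay on the far shoulder of a peak whose summit had similar values in both lineages. At the summit, 200 bp before the DMR window, the epithelial pools had 24, 39 and 26 counts in control and 33, 47 and 34 in vinclozolin pools, which gave 0.400 ± 0.0440 and 0.431 ± 0.0315 CPM. The window between summit and DMR window (start 25293501) had 15, 20 and 12 counts in control and 26, 26 and 28 in vinclozolin pools, a ratio of mean CPM of 1.45. The scaled pools overlapped only through epithelial control replicate 1, and the ratio without it was 1.58. The window after the DMR window (start 25293701) had 2, 4 and 2 counts in control and 10, 13 and 9 in vinclozolin pools, a ratio of 3.41. On the near shoulder (start 25293201) the direction was the opposite, with 16, 22 and 21 counts in control and 16, 20 and 15 in vinclozolin pools, and the scaled pools did not overlap.

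**Figure D2:**
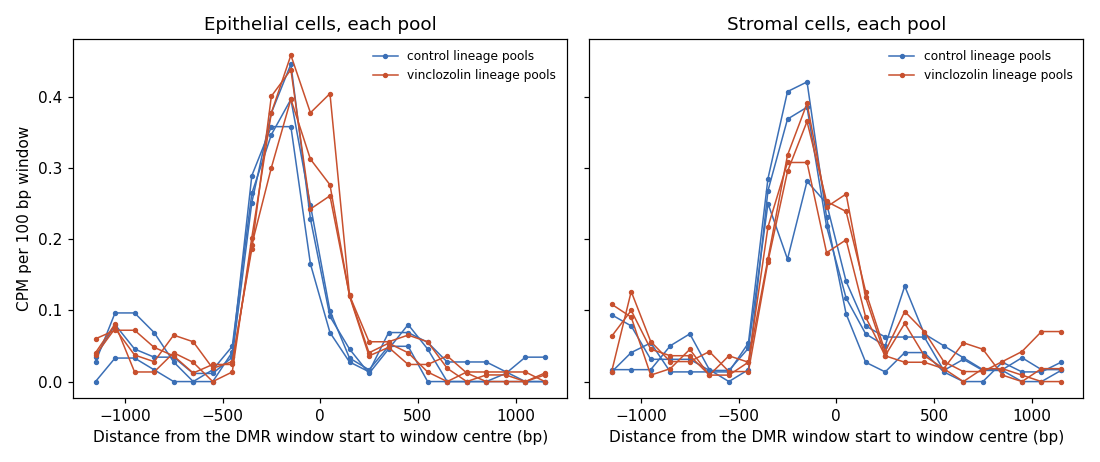
CPM per 100 bp window (vertical axis) in each of the 12 pools around the DMR window, by distance in bp from its start to the centre of each window (horizontal axis), with epithelial pools on the left and stromal pools on the right. The lines of the lineages run together at the summit and part on the shoulder to its right, where the DMR window had 0.0865 against 0.314 CPM in epithelial and 0.118 against 0.234 CPM in stromal cells (control against vinclozolin means).

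Around the DMR window, neighbouring windows of p under 0.1 were joined where no more than 1000 bp separated their starts. This gave a region of 37 windows, chr6:25290101-25293800, called the joined region. It was built from p-values computed here and, at 3700 bp, is much longer than the region that the study assigned to the gene. Sums over it are therefore not values of the study's region. Of its 37 windows, 31 had at least 10 counts over the epithelial pools and 14 had a p-value under 0.1. The members of the region did not move in 1 direction. By a p-value under 0.05, 4 windows were higher and 4 lower in the vinclozolin lineage, and outside the region 4 of 156 were higher and 1 lower. Over the locus this made 8 of 187 windows higher, against 2.86% of all windows in the genome, and 5 lower, against 2.69%. Nothing is read from these counts, since the same contrast chose the locus. The epithelial lineages did not overlap in 18 windows with higher vinclozolin values, against 7.19% of all windows, and in 10 with lower values, against 5.45%.

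The sum over the whole joined region was nearly equal between the epithelial lineages, at 3.99 ± 0.373 CPM in control and 4.09 ± 0.180 CPM in vinclozolin pools (SD, n = 3), a log2 ratio of 0.03, or 0.06 without epithelial control replicate 1. Within it, the 7 adjacent windows from -2.7 to -2.1 kb had lower vinclozolin values, with log2 fold changes of -0.60 to -0.28. The lowest value of the region was at -1.9 kb (start 25291701), with 5, 12 and 5 counts in control and 2, 4 and 1 in vinclozolin pools. Some 500 bp further on, the windows at -1.4 and -1.3 kb were higher, with 3, 11 and 2 against 13, 22 and 6 counts, and with 2, 6 and 1 against 12, 14 and 3. The scaled pools of the lineages overlapped at both windows.

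Just inside the far end of the joined region lay the window at 25293701 described above, and just outside it the window at 25293801 had 1, 1 and 1 counts in control and 3, 6 and 3 in vinclozolin pools. At the other end, the first window inside (start 25290101) had 2, 4 and 5 against 3, 2 and 0 counts, and the one before it (start 25290001) had 1, 6 and 4 against 3, 3 and 0. In these last windows the scaled lineages overlapped only through epithelial control replicate 1. Without that pool they separated, with lower vinclozolin values. The windows at the outer edge of the locus were nearly empty or low, with group means of 0.0265 to 0.0477 CPM in its first and of 0 to 0.0121 CPM in its last window.

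Stromal cells were used to ask whether the lineages differ at the locus in a contrast that did not choose it. At the DMR window the stromal counts were 7, 9 and 7 in control and 22, 29 and 17 in vinclozolin pools, and every scaled vinclozolin value was above every control value. The means were 0.118 ± 0.0228 CPM in control and 0.234 ± 0.0325 CPM in vinclozolin pools (SD, n = 3), a ratio of 1.99. The log2 fold change was 1.01 in edgeR's exact test, with an unadjusted p of 0.00337 and an adjusted p of 0.355 over all windows tested, so the window did not pass the limit of 0.05. An exact two-sided permutation test of the 3 against 3 pools gave p = 0.1, the smallest it can give.

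The stromal windows around the DMR window were compared in the same way. The summit values of the lineages overlapped, with 23, 18 and 31 counts in control and 34, 43 and 26 in vinclozolin pools, or 0.363 ± 0.0725 and 0.355 ± 0.0425 CPM. The window between summit and DMR window had a ratio of 0.972 in stromal cells. The window after the DMR window had 4, 5 and 2 counts in control and 10, 13 and 9 in vinclozolin pools, a ratio of 1.94, and the scaled pools did not overlap. Its unadjusted p was 0.0597. On the near shoulder (start 25293201) the stromal pools had 16, 16 and 21 counts in control and 24, 19 and 12 in vinclozolin pools, or 0.268 ± 0.0175 and 0.186 ± 0.0270 CPM, lower in the vinclozolin lineage without overlap and with an unadjusted p of 0.0985. The stromal and epithelial pools were made from the same rats, so the likeness of the cell types is not independent support for the epithelial difference.

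**Figure D3:**
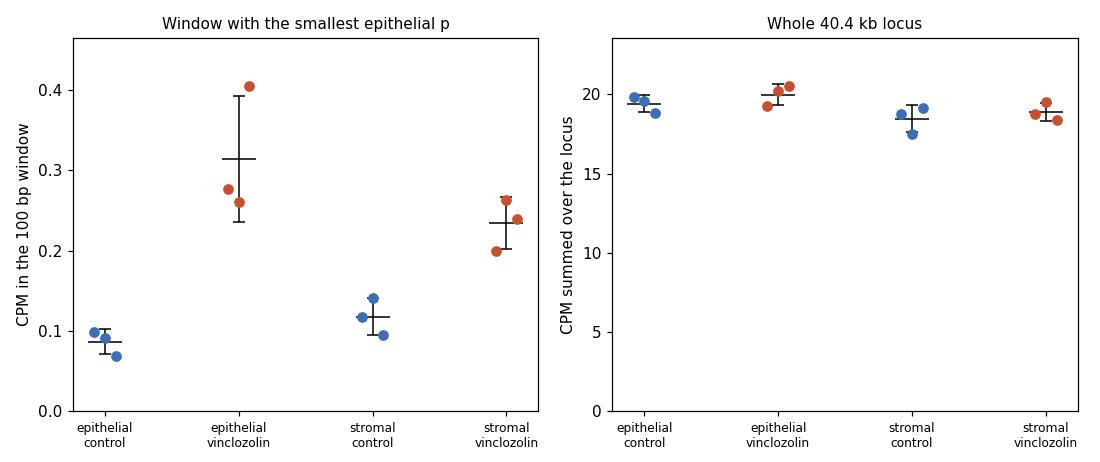
CPM of each pool (points) with the mean and SD of 3 pools (bars) in the DMR window (left) and summed over the whole locus (right), for the 4 groups on the horizontal axis. In the DMR window the vinclozolin pools lie above the control pools in both cell types, while the locus sums lie between 17.5 and 20.5 CPM in all 12 pools.

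Over the whole locus, 0 of the 173 stromal windows tested passed an adjusted p of 0.05 in edgeR's exact test, where 0.052% of all 11670448 windows did. At an unadjusted p under 0.05, 15 windows were higher in the vinclozolin lineage, against 3.93% of all windows, and 4 were lower, against 2.96%. Of the 15 higher windows, 6 held under 5 counts in the 3 control pools together. Every window with under 10 control counts, these 6 and others, reached the minimum of 10 only through the vinclozolin pools. Nothing is therefore read from the count of higher windows. It was 9 without stromal control replicate 1 and 8 without stromal vinclozolin replicate 2. The lower windows were 7 without stromal control replicate 1 or 2 and 2 without replicate 3. Of the 15, 7 lay among the 32 tested windows of the joined region and 8 among the 141 outside it. The stromal pools did not overlap in 23 windows with higher vinclozolin values, against 8.64% of all windows, and in 13 with lower values, against 5.89%. The quasi-likelihood test of edgeR called 0 windows of the locus as well, where it called 8710 of all 11670448 windows. DESeq2 also called 0, but it called 0 over the whole of chromosome 6, so this cannot set the locus apart.

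The smallest stromal p-value lay at -2.9 kb (start 25290701), on the near shoulder of the peak whose summit is at -2.6 kb. The stromal counts there were 0, 1 and 2 in control and 9, 10 and 8 in vinclozolin pools, with a log2 fold change of 2.51, an unadjusted p of 0.000312 and an adjusted p of 0.152 in edgeR's exact test. This window reached 10 stromal counts only through the vinclozolin pools. The epithelial counts there were 1, 1 and 1 in control and 2, 6 and 5 in vinclozolin pools. The next window (start 25290801) had 5, 10 and 4 against 20, 23 and 13 counts in stromal cells, with an unadjusted p of 0.00859. The summit itself had a stromal ratio of 1.00, while in epithelial cells it was lower in the vinclozolin lineage, as given above.

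The smallest stromal p-value among lower windows was at -7.9 kb (start 25285701), outside the blocks. Its stromal counts were 4, 5 and 5 in control and 1, 4 and 1 in vinclozolin pools, with a log2 fold change of -1.70, an unadjusted p of 0.0118 and an adjusted p of 0.497. Counts this low carry a wide counting error, and the window did not pass.

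Among the 161 windows that reached 10 counts in both cell types, 5 had higher vinclozolin values without overlap in both, against 1.07% of all such windows in the genome. The epithelial contrast is part of this count and chose the locus, so nothing is read from it. Of the 5, 3 lay in the joined region and 2 outside it, on peak shoulders, and these 2 are given after their values were seen. A further window beside the peak at -14.0 kb (start 25279201) separated in the same way but held only 8 counts in each cell type. At -11.8 kb (start 25281801), 2 windows before the highest summit, the epithelial counts were 14, 21 and 17 in control and 24, 39 and 32 in vinclozolin pools, a ratio of 1.54. The stromal counts there were 11, 14 and 15 in control and 28, 31 and 23 in vinclozolin pools, a ratio of 1.41 with an adjusted p that did not pass. At -6.0 kb (start 25287601), 2 windows after a summit, the epithelial counts were 12, 13 and 17 against 21, 36 and 25, a ratio of 1.59. The stromal counts were 12, 7 and 17 against 37, 33 and 19, a ratio of 1.67. In the other direction, 3 of the 161 windows were lower without overlap in both cell types, against 0.697% of all such windows. They were the window at -7.9 kb described above and, in the joined region, those at -1.9 and -0.4 kb (starts 25291701 and 25293201).

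The lineage log2 fold changes of single windows were only loosely alike in the 2 cell types. Over the 131 windows outside the joined region that reached 10 counts in both cell types, 41 were higher and 38 lower in both, which is 60.3% with the same sign. Pearson's r across these windows was 0.21, a weak value in sparse counts from pools of the same rats, given as a description. Neither the share nor r was computed over the genome, so whether this likeness is usual was not tested. The medians over 161 windows, those of the joined region included, were 0.01 in epithelial and 0.01 in stromal cells.

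**Figure D4:**
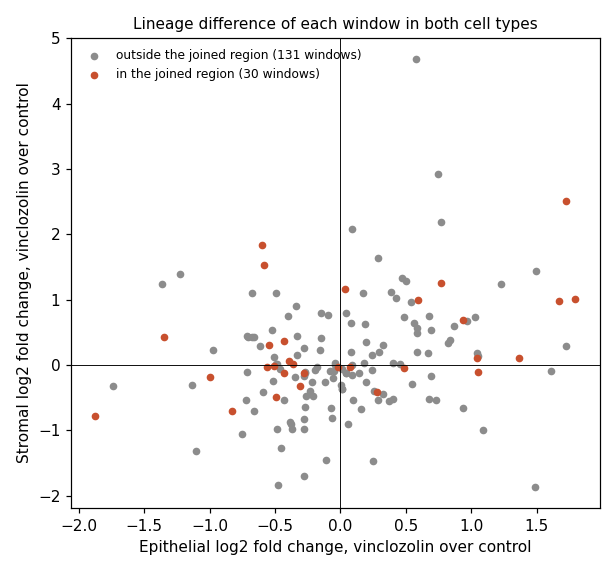
Log2 fold change of vinclozolin over control in epithelial cells (horizontal axis) and stromal cells (vertical axis) for the 161 windows of the locus that reached 10 counts in both cell types, with 1 point per window and those of the joined region in red. Most points lie around 0 on both axes, and the DMR window and the window after it are at the right with stromal values of 1.01 and 0.97.

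Summed over the whole locus, the pools of the lineages overlapped in both cell types. These sums were scaled by TMM factors of the tiles, and all other CPM values by those of the windows. The locus held 19.8, 19.6 and 18.8 CPM in epithelial control and 19.3, 20.2 and 20.5 CPM in epithelial vinclozolin pools. In stromal cells it held 18.8, 17.5 and 19.1 CPM in control and 18.7, 19.5 and 18.4 CPM in vinclozolin pools. The stromal lineage log2 fold change was 0.03 with a standard error of 0.05 and an adjusted p of 0.728 in edgeR's quasi-likelihood test over 68625 tiles of the same length. Of all tiles, 11.2% passed an adjusted p of 0.05 in this contrast. Without stromal control replicate 2, the lowest pool, the stromal log2 fold change was -0.01, and without the windows of the joined region it was -0.0032, so even its direction rested on that pool and on those windows. With the TMM factors of the windows the stromal means were 18.2 ± 0.812 CPM in control and 19.1 ± 0.783 CPM in vinclozolin pools (SD, n = 3), a log2 ratio of 0.07, with p = 0.3 in an exact two-sided permutation test.

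Scaled by the TMM factors of the windows, the sum over the joined region did not overlap between the stromal lineages. It was 3.61 ± 0.243 CPM in control and 4.18 ± 0.213 CPM in vinclozolin pools (SD, n = 3). An exact two-sided permutation test gave p = 0.1, the smallest it can give. With the TMM factors of the tiles, or without TMM, stromal control replicate 1 lay above stromal vinclozolin replicate 1 and the lineages overlapped. The factor of that control pool was 1.04 for the windows and 0.996 for the tiles. Nothing is read from the separation, since epithelial p-values of the same rats set the limits of the region.

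Epithelial and stromal cells were then compared within each lineage, with all 12 pools in 1 fit of edgeR's quasi-likelihood test. The windows of the joined region get no test here, because epithelial values chose them. In the control lineage 0 of the 166 tested windows outside the joined region passed an adjusted p of 0.05, where 0.00128% of all 12924665 windows did. At an unadjusted p under 0.05, 10 windows were higher in epithelial cells, where 3.54% of all windows were, and 3 were lower, where 3.18% were. The higher windows were 5 without epithelial control replicate 1. The lower windows were 1 without epithelial control replicate 2, 5 without stromal control replicate 1 and 1 without stromal control replicate 3. A window was tested if either cell type reached 10 counts. Some of the higher windows did so only in epithelial cells, where they are high, so nothing is read from these counts. The smallest p-value was at -8.7 kb (start 25284901), with 7, 10 and 4 counts in epithelial control and 2, 2 and 1 in stromal control pools. Its log2 fold change was 1.85 with a standard error of 0.66 and an adjusted p of 0.584. Among lower windows it was at 11 kb (start 25304601), with 0, 1 and 2 against 1, 2 and 8 counts and an adjusted p of 0.705.

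In the vinclozolin lineage 0 of the 166 windows passed, where 0.00674% of all windows did. At an unadjusted p under 0.05, 9 windows were higher in epithelial cells, against 3.29% of all windows, and 2 were lower, against 3.39%. Without epithelial vinclozolin replicate 2 they were 4 and 4. Several of the higher windows reached 10 counts only in epithelial cells, where they are high, so nothing is read from these counts. The smallest p-value was at -11.4 kb (start 25282201), on the far shoulder of the highest peak, with 4, 16 and 5 counts in epithelial vinclozolin and 23, 28 and 10 in stromal vinclozolin pools. Its log2 fold change was -1.13 with a standard error of 0.33 and an adjusted p of 0.360. Among higher windows it was at -10.2 kb (start 25283401), with 4, 7 and 4 against 0, 2 and 1 counts and an adjusted p of 0.535, a window that reached 10 counts only in epithelial cells. DESeq2 called 0 windows of the locus in either lineage, but it also called 0 over the whole of chromosome 6, so this cannot set the locus apart.

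As a description, the DMR window was lower in epithelial than in stromal cells of the control lineage, at 0.0865 against 0.118 CPM, and higher in epithelial than in stromal cells of the vinclozolin lineage, at 0.314 against 0.234 CPM. Whether the lineage difference differs between the cell types was not tested, since the epithelial values chose the window.

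The locus total differed little between the cell types. It was tested without the windows of the joined region, a choice made after seeing the data, and passed in neither lineage. The log2 fold change of epithelial over stromal cells was then 0.06 with a standard error of 0.06 in the control lineage (adjusted p = 0.755 by edgeR's quasi-likelihood test, where 0.713% of all tiles passed). It was 0.11 with a standard error of 0.06 in the vinclozolin lineage (adjusted p = 0.348, where 2.39% of all tiles passed). With those windows, as a description, the values were 0.07 and 0.08. The control lineage value with them was 0.028 without stromal control replicate 2. With a narrower locus, of 10 kb in place of 20 kb on each side, the values were 0.043 in the control and 0.018 in the vinclozolin lineage. Against the rest of the genome, the locus was in the upper range of MeDIP signal, with a mean of 19.2 CPM over the 12 pools where the median tile had 13.5 CPM, and 77.7% of tiles lay below it.

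The tiles whose log2 CPM over the 12 pools was most like that of the locus were chr8:29030701-29071100 with a Pearson's r of 0.92, chr1:228687501-228727900 with 0.90 and chr14:64259501-64299900 with 0.90. The median r over all tiles was 0.03. These are the highest of 68625 correlations over 12 pools that share depth and group structure, and are given as a description.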

How the data were processed

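Per the labels and the study's methods, Trimmomatic, Bowtie2, SAMtools and MEDIPS were used by the authors for trimming, alignment to Rnor 6.0, file conversion and counting in 100 bp windows. Their versions for the MeDIP-Seq data are not given in the sources used here. The deposited counts of each pool are whole numbers without normalization, and a read over several windows is counted in each. The 12 columns of RPKM values and the authors' p-values and means were not used.

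The tests used edgeR 4.0.16 in R 4.3.3 with TMM scaling, on windows that reached 10 counts over the 6 pools of a cell type. Where the cell types were compared, it was enough that either of them reached this minimum. The lineages were compared by the exact test within a cell type, and the cell types by the quasi-likelihood test over 12 pools in 4 groups. Windows were fitted in 16 interleaved parts of the genome. The exact test used tagwise dispersions, with the common dispersion from a sample of 400000 windows. The quasi-likelihood fits used no tagwise dispersions but a common one, from a sample of 100000 windows or from the tiles. Benjamini-Hochberg adjustment was made over every window tested, or over tiles of 40400 bp with at least 100 counts, with a limit of 0.05. DESeq2 1.42.0 was an alternative. The fits were tested on simulated data. The windows changed there held more counts than most windows of the locus, so changes in sparse windows were not covered.

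The windows named by rule are those of the joined region and beside it, the 5 highest (starts within 300 bp counting as 1), the smallest p-value of each tested contrast in each direction, and the 3 tiles most like the locus. Named besides were windows whose lineages separated in both cell types, chosen after seeing their values, the edge windows of the locus and the flagged window. The locus, these rules and the tests were chosen with earlier results of these data known. A list of androgen pathway genes was not analysed, because no Rnor 6.0 coordinates were used here. The labels do not say whether a pool number marks the same rats in both cell types. Deviations from the group means correlated between -0.02 and 0.07 for the same number in the 2 cell types, and between -0.067 and 0.037 for different numbers. In the 2 lineages they correlated between -0.22 and 0.00 for the same number and between -0.089 and 0.19 for different numbers. These values do not decide whether the numbers pair the cell types. The main tests left the number out, and a block was an alternative. P-values set a difference of groups against counting error and the spread between pools, and not against the spread between single rats. Precision in windows of few counts is limited by counting error, and reads without molecular identifiers are not independent molecules.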

Additional observations from a re-analysis of the deposited data

Results flagged for a closer look

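At the second window of the locus (start 25273601), in counts scaled to depth, every epithelial vinclozolin pool lay above every control pool, while every stromal vinclozolin pool lay below every stromal control pool, by as little as 0.0454 against 0.0469 CPM. The unscaled counts were 2, 2 and 4 against 5, 8 and 6 in epithelial cells and 5, 3 and 4 against 3, 5 and 3 in stromal cells (control against vinclozolin). The log2 fold changes were 0.94 and -0.65. The difference between the cell types was not tested. Of all windows, 7.19% separated with higher vinclozolin values in epithelial cells and 5.89% with lower ones in stromal cells. The share with opposite directions was not computed, so nothing is read from this window. The stromal fold change did not pass, with an unadjusted p of 0.405 in edgeR's exact test.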

How the results depend on the processing

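The count of called windows in the locus (for the cell types, outside the joined region) was 0 in all 3 tested contrasts with library sizes without TMM, DESeq2's size factors, DESeq2 itself, no filter, a minimum of 40 counts, bins of 1000 bp, and each pool compared left out in turn. It was also 0 with edgeR's quasi-likelihood test, run for the stromal lineages, and with only the 6 pools of a lineage, run for the cell types. DESeq2 called 0 windows over the whole of chromosome 6 in each contrast, so its 0 here cannot set the locus apart. The scaling, filter-free and left-out fits used 1 window in 10 of the genome beside all windows of the locus, a choice made after seeing the data. With each stromal pool left out, the smallest adjusted p of the stromal windows by edgeR's exact test was 0.232 to 0.447. With the pool number or the pool of rats as a replicate block, called windows also stayed at 0, and the locus totals had log2 fold changes of 0.03 (stromal lineages), 0.07 (cell types, control) and 0.08 (cell types, vinclozolin), so the block changed no call. Leaving out each pool moved these to between -0.0091 and 0.057, between 0.028 and 0.095, and between 0.063 and 0.106. The reversed value, -0.0091, came without stromal control replicate 2. With 10 kb on each side they were 0.0048, 0.043 and 0.018, and without the windows of the joined region, added after seeing the data, -0.0032, 0.056 and 0.109. The epithelial log2 ratio of 1.86 at the DMR window was 1.64 to 1.98 with a pool left out and 0.0337 for the sum over the joined region, which holds windows of both directions. With the TMM factors of the windows, added after seeing the data, the stromal locus total had a log2 ratio of 0.0706. Of the 386 windows with a count, 173 reached 10 counts in stromal cells and the others were not tested there.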
